A study of Mus musculus with 16 samples.

Results

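The genes that carry glucose into a muscle fibre, split it to pyruvate and lactate, and store it as glycogen were followed across 16 male FVB/n mice, in whole gastrocnemius, the large calf muscle. They are 40 genes, chosen by symbol as transporters, enzymes and regulatory subunits of these pathways. Of the 40, 36 had a probe set with a single gene symbol, and 35 of these passed the filter on dim probe sets. Gpi1 (glucose phosphate isomerase), Pfkfb1 (which makes and removes fructose 2,6-bisphosphate) and Eno1 (the enolase of most cells) were matched by no probe set in the annotation used here. Aldoa, the aldolase of muscle, had only a probe set shared with other symbols. Aldoc, the brain aldolase, lay above the array median in 0 of 16 mice and was not tested.

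Both groups of 8 mice carried floxed alleles of FoxO1, FoxO3 and FoxO4, ate a high-fat diet for 8 weeks (16.4% protein, 58% fat and 25.5% carbohydrate) and were killed at 16 weeks of age. At 4 to 5 weeks of age the mice received polyinosine:cytidine 3 times, to evoke interferon and so activate the Mx1 promoter. The deletion group also carried Mx1-Cre, and the controls were littermates without Cre. The labels call the deletion endothelial directed, that is, aimed at the cells lining blood vessels. The Mx1 promoter answers to interferon in many cell types, so deletion need not be restricted to the endothelium, and carrying Cre cannot be told apart from the deletion. The comparison asks how the muscle transcriptome differs after FoxO loss under fat feeding.

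Glucose enters resting fibres through the transporter GLUT1 and, after insulin or contraction, through GLUT4, which moves from vesicles to the membrane. Hexokinase traps it, phosphofructokinase commits it to glycolysis, and the same fibre can store it as glycogen and release it again through phosphorylase. Several steps have an isoform made mainly in fibres (Slc2a4, Pfkm, Pgam2, Eno3) and another used in most other cells, vessel cells among them (Slc2a1, Pfkp, Pgam1, Eno1). FoxO factors take part in the switch between burning glucose and burning fat.

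Promoters are shown for 3 of these genes because their sequences differ in a short motif tied to this pathway. ACGTG, read on either strand, is the core of the element bound by hypoxia-inducible factors, the activators of many glycolytic genes. Each run below covers 250 bases before to 50 after a start site of the gene, in the RefSeq annotation of GRCm38.p6, with ACGTG or its reverse complement CACGT in capitals. Slc2a1 encodes GLUT1 and lies at chr4:119108495-119108794 on the plus strand, Pfkp encodes the platelet type phosphofructokinase and lies at chr13:6648722-6649021 on the minus strand, and Ldha encodes the lactate dehydrogenase subunit A and lies at chr7:46845554-46845853 on the plus strand.
Slc2a1: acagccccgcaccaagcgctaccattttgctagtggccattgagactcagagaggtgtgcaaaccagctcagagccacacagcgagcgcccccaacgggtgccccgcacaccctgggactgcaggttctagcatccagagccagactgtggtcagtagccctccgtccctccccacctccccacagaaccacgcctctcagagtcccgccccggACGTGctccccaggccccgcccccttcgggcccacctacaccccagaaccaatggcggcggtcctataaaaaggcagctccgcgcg
Pfkp: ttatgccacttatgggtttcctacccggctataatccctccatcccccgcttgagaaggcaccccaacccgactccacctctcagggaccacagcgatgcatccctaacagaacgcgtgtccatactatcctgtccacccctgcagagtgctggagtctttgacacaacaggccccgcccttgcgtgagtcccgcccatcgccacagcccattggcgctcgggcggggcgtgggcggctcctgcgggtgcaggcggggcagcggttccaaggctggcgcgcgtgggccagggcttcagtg
Ldha: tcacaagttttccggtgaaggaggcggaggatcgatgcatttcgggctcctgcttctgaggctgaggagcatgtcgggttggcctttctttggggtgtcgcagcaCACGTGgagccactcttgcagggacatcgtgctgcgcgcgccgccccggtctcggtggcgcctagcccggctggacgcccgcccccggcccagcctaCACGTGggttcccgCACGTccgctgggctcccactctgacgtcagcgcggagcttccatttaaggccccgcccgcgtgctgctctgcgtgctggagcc
Slc2a1 held the motif at 1 place, Pfkp at 0 and Ldha at 3 places. Ldha has a further promoter in the table, at chr7:46846832-46847131, which held it at 0 places, and the one with more matches is printed. At the runs CACGTG in the Ldha promoter the motif reads the same on both strands, so that its letters were matched there on each strand. Promoters of 37 of the 40 genes were in the table. ACGTG was present in at least one promoter of 21 of the 37 genes, or 56.8%, against 21.8% of all genes with a promoter. Counted by promoter the share was 44.6% of 56, against 19.6% of 32851. All genes were not matched to the 37 in promoter number or base composition. CACGTG, the E-box, which overlaps ACGTG, was found in 8 of the 37 (21.6% against 8.09%). A FoxO site, GTAAACA, was found in 1, Aldoc (2.7% against 4.05%). The other motifs of the 6 searched were TAAACA, which lies within GTAAACA, in 4 genes (10.8% against 15.1%), CAAAACA in 1 (2.7% against 7.2%), and the GC box GGGCGG in 26 (70.3% against 38.2%). A match is a run of letters and not a bound site, and both the motifs and the promoters printed were chosen after values had been seen.

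The arrays were alike, with correlations between 0.958 and 0.982 and array medians of 4.43 to 4.61 log2 units. Fast fibre markers defined the tissue in every mouse, their mean running from 12.38 to 12.63. Of the targeted genes, Foxo1 differed by 0.07 (SE 0.12, limma adjusted p = 0.804), Foxo3 by 0.50 (SE 0.14, adjusted p = 0.0762) and Foxo4 by -0.24 (SE 0.10, adjusted p = 0.236) between deletion mice and controls. Whether these probe sets lie in the deleted parts was not analysed here, so they do not check the deletion. Alb, the albumin transcript of liver, read above 9 log2 units in 6 mice (controls 2 and 7, and deletion mice 1, 2, 4 and 5). Endothelial markers were higher with deletion, with 15 of 30 past the threshold and list means of 7.12 to 7.73 against 6.96 to 7.22 in the controls. Cdh5, an adhesion protein of vessel walls, rose by 0.58 (adjusted p = 0.00617). Macrophage markers passed in 5 of 18 cases, all higher, and Schwann cell and nerve markers in 0 of 9. Of the neutrophil and red cell markers 1 of 5 passed, the neutrophil gene S100a8 (higher), and all 5 had an unadjusted p under 0.05, with list means of 4.88 to 6.73 against 4.65 to 5.16. Of 10 adipocyte markers 1 passed, Fabp4 (higher), which is also in the endothelial list. Of 13 fibroblast and tendon markers 3 passed, Fmod, Kera and Chad, all lower. In whole muscle fewer cells of a type and less RNA per cell cannot be told apart.

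None of the 35 metabolic genes passed the threshold in either direction (limma, Benjamini-Hochberg adjusted p under 0.05 over 13601 genes). Over all genes 249 passed, a share of 1.83%, with 208 higher (1.53%) and 41 lower (0.301%). At an unadjusted limma p under 0.05 there were 4 of the 35 (11.43%), against 17.3% of all genes tested. Slc2a1 and Pfkp were the higher ones of these 4, and Ppp1r3a and Fbp2 the lower ones. The median difference over the 35 was 0.052 log2 units, against 0.00075 over all genes. The sign was positive for 24 and negative for 11. With each array centred on the median of the genes tested, the median difference was -0.0011, against -0.052 over all genes. The 95% interval lay within 0.5 log2 units (1.414-fold) of 0 on both sides for 32 of the 35. The exceptions were Slc2a1, Pfkp and Pfkfb3. Without deletion mouse 8, 3 of the 35 passed (Slc2a1, Pfkp and Ppp1r3a), and 680 genes passed in all. Without the 6 mice with high Alb, more of them deletion mice than controls, 0 of the 35 passed and 7 genes passed in all. The groups were then smaller and unequal, and most SEs larger (0.16 against 0.11 for Hk1). The 7 can therefore not be set against the 249. The median difference over the 35 was then -3.99e-05, against -0.0106 over all genes.

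**Figure D1:**
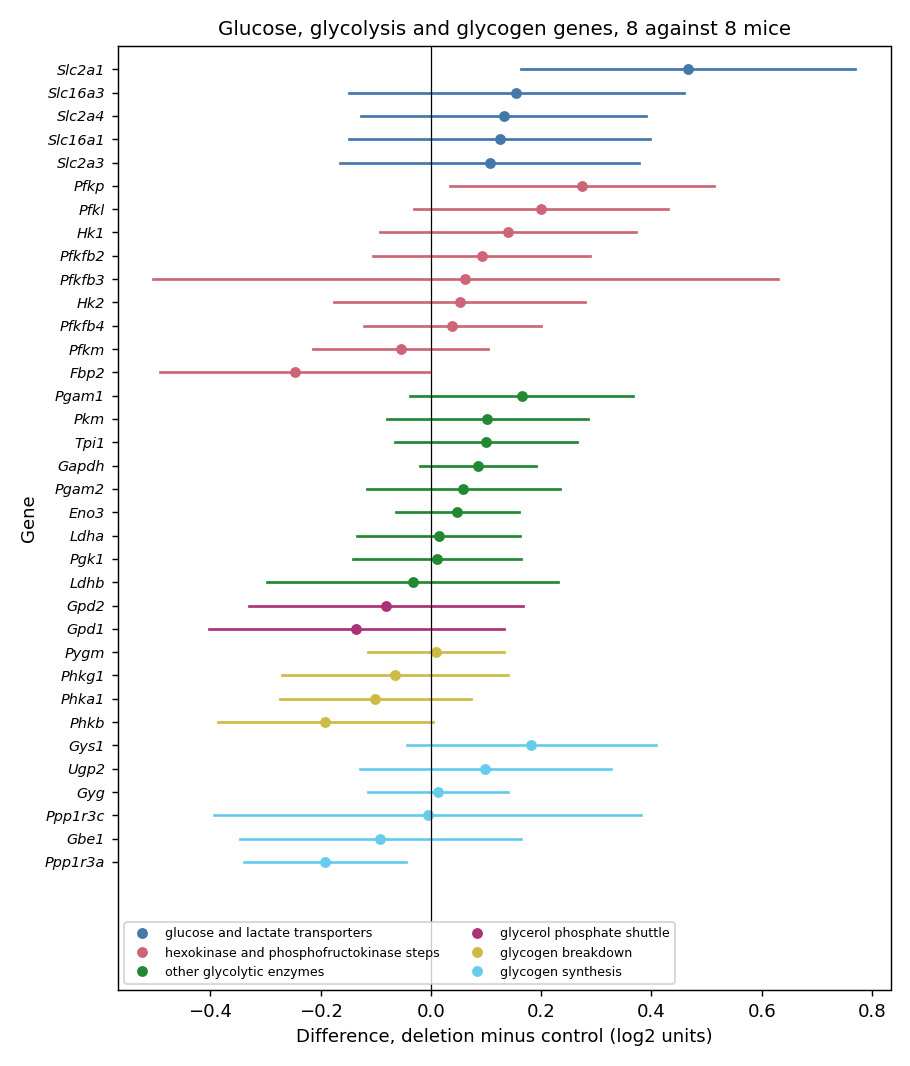
Difference between the group means (deletion minus control, log2 units, horizontal axis) for each of the 35 genes tested, with its 95% confidence interval from limma and coloured by role in the pathway. The intervals of Slc2a1 and Pfkp lie above 0, and those of Ppp1r3a and Fbp2 below it, before adjustment over all genes.

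All 5 transporters tested had a positive difference, with a median of 0.132, and 0 passed. Slc2a1 (GLUT1, chromosome 4) ran from 6.33 to 6.91 in the controls, with a median of 6.69, and from 6.70 to 7.75 in the deletion mice, with a median of 7.03. Deletion mice 2, 4, 5, 6 and 7 lay above every control, and the other deletion mice lay within the controls' range. The difference was 0.47 log2 units, or 1.382-fold (SE 0.14, limma adjusted p = 0.108, unadjusted exact permutation p = 0.00979, n = 8 and 8). Without deletion mouse 8 it was 0.53 and passed (adjusted p = 0.0429), and with each other mouse left out it did not. The other Slc2a1 probe set lay above the array median in only 2 of 16 mice. It fell under the filter, was not tested, and differed by 0.03.

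Slc2a4, the insulin-responsive GLUT4 (chromosome 11), read 8.61 to 9.31 in the controls and 8.71 to 9.44 in the deletion mice, with medians of 8.97 and 9.04. The groups overlapped almost fully, and the difference was 0.13 (SE 0.12, adjusted p = 0.619). Slc2a3, the high-affinity GLUT3, differed by 0.11 (SE 0.13), its deletion values spreading from 4.92 to 6.11 beyond both ends of the control range of 5.03 to 5.43. The lactate carriers Slc16a1 (MCT1) and Slc16a3 (MCT4) differed by 0.12 (SE 0.13) and 0.16 (SE 0.15).

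At the hexokinase and phosphofructokinase steps 7 of 9 genes had a positive difference, the median was 0.06 and 0 passed. Hk2, the insulin-induced hexokinase of muscle, differed by 0.05 (SE 0.11), and Hk1, the hexokinase of most cells, by 0.14 (SE 0.11). For Hk1, 4 of 8 deletion mice lay above every control, whereas deletion mouse 8 lay below them all at 5.13.

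Pfkp (chromosome 13) read 5.22 to 5.78 in the controls, with a median of 5.52, and 5.12 to 6.05 in the deletion mice, with a median of 5.81. Deletion mice 1, 2, 5, 6 and 7 lay above every control, while deletion mouse 8 lay below them. The difference was 0.27 (1.209-fold, SE 0.11, adjusted p = 0.224, exact permutation p = 0.0441). Leaving out deletion mouse 8 raised it to 0.36 and past the threshold (adjusted p = 0.0294). Pfkl, the liver type subunit (chromosome 10), ran from 5.52 to 5.86 in the controls and from 5.43 to 6.38 with deletion, with medians of 5.75 and 5.91. It differed by 0.20 (SE 0.11, adjusted p = 0.356), with deletion mice 2, 4, 5 and 6 above every control. Pfkm, the muscle subunit (chromosome 15), read 11.11 to 11.54 in the controls and 11.10 to 11.52 with deletion, with medians of 11.23 and 11.13. Its difference was -0.05 (SE 0.08, adjusted p = 0.76), and the groups covered nearly the same range.

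Fbp2, the muscle fructose bisphosphatase, which runs against phosphofructokinase on the way to glycogen, lay on chromosome 13 and read lower with deletion. Its values were 7.71 to 8.40 in the controls and 7.55 to 8.25 in the deletion mice, with medians of 8.29 and 7.98. Deletion mice 6 and 7 lay below every control and the others overlapped them. The difference was -0.25 (SE 0.12, adjusted p = 0.285, exact permutation p = 0.072). The enzymes that make and remove the activator fructose 2,6-bisphosphate were measured with unequal precision. Pfkfb2 differed by 0.09 (SE 0.09) and Pfkfb4 by 0.04 (SE 0.08). Pfkfb3 varied most among the 35 genes, from 6.01 to 8.35 in the controls alone, and its difference of 0.06 had an interval of -0.50 to 0.63.

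Of the 9 other glycolytic enzymes tested, 8 had a positive difference, all small, with a median of 0.06. Gapdh, the dehydrogenase of the middle of the pathway, differed by 0.09 (SE 0.05, adjusted p = 0.39), with all 8 deletion mice above the control mean and an exact permutation p of 0.0183. Its probe sets sat, by identifier order, among genes of chromosomes 11, 5 and Y, whereas the gene is on chromosome 6, so that their match to the gene is uncertain. The other Gapdh probe sets differed by 0.07 (SE 0.05) and -0.12 (SE 0.08), and the mean of the 3 by 0.01 (SE 0.05). Tpi1 (triose phosphate isomerase) differed by 0.10, Pgk1 (phosphoglycerate kinase) by 0.01 and Pkm (pyruvate kinase) by 0.10. Eno3, the enolase of fibres (chromosome 11), read 12.78 to 13.05 in the controls and 12.87 to 13.01 with deletion, medians 12.89 and 12.93. Its difference of 0.05 (SE 0.05) had an interval of -0.06 to 0.16. The lactate dehydrogenase subunits Ldha and Ldhb, the latter typical of oxidative fibres, differed by 0.01 (SE 0.07) and -0.03 (SE 0.13). The Ldha probe set read 6.27 on average in the controls, against 8.38 for Ldhb, and how well it reads the gene was not tested.

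Pgam2, the phosphoglycerate mutase of fibres (chromosome 11), read 9.69 to 10.42 in the controls and 9.97 to 10.29 with deletion, with medians of 9.99 and 10.08. It differed by 0.06 (SE 0.08). Pgam1, the mutase of other cells, read 6.43 to 7.10 in the controls and 6.79 to 7.14 with deletion, with medians of 6.72 and 6.88. All 8 deletion mice lay above the control mean but only 2 above every control, and the difference was 0.17 (SE 0.10, adjusted p = 0.387). This brighter Pgam1 probe set sat among genes of chromosome 3, although the gene is on chromosome 19. The other probe set, which sat among genes of chromosome 19, gave 0.08 (SE 0.10).

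Both enzymes of the glycerol phosphate shuttle, which passes electrons from glycolysis to mitochondria, had negative differences that did not pass. Gpd1, the cytosolic enzyme, differed by -0.14 (SE 0.13), with 7 of 8 deletion mice below the control mean. Gpd2, the mitochondrial enzyme, differed by -0.08 (SE 0.12).

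Glycogen breakdown was measured through phosphorylase and its kinase, with 4 genes tested, 1 positive, 3 negative and 0 past the threshold. Pygm, muscle phosphorylase, differed by 0.01 (SE 0.06) and had an interval of -0.11 to 0.13. Phkb, the beta subunit of phosphorylase kinase (chromosome 8), read 10.83 to 11.12 in the controls and 10.34 to 11.11 with deletion, with medians of 10.94 and 10.75. Deletion mice 2, 4, 5, 6 and 7 lay below every control, and the difference was -0.19 (SE 0.09, adjusted p = 0.296, exact permutation p = 0.0629). The catalytic subunit Phkg1 and the alpha subunit Phka1 differed by -0.06 (SE 0.10) and -0.10 (SE 0.08).

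Among the 6 genes of glycogen synthesis 3 had a positive and 3 a negative difference, with a median of 0.0037. Ppp1r3a, the muscle subunit that brings protein phosphatase 1 to glycogen (chromosome 6), read 11.33 to 11.70 in the controls, with a median of 11.49, and 11.17 to 11.58 in the deletion mice, with a median of 11.27. Deletion mice 2, 4, 5, 6 and 7 again lay below every control, and deletion mouse 8 lay among the highest controls. The difference was -0.19 (SE 0.07, adjusted p = 0.171, exact permutation p = 0.0124). Without deletion mouse 8 it was -0.23 and passed (adjusted p = 0.0453). Gys1, the muscle glycogen synthase, differed by 0.18 (SE 0.11, adjusted p = 0.392), with 7 of 8 deletion mice above the control mean. Ugp2, which makes the sugar donor of glycogen, Gyg, the glycogenin primer, and Gbe1, the branching enzyme, differed by 0.10, 0.01 and -0.09. Ppp1r3c, another phosphatase targeting subunit, differed by -0.01 (SE 0.18), with a wider spread in the deletion mice (SD 0.53) than in the controls (SD 0.25).

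The fibre isoform of a step was then set against the isoform of other cells within each mouse, as the difference in log2 units between their probe sets. Only the change of this difference between groups has a meaning, since probe sets differ in brightness for the same amount of RNA. There were 3 such pairs, because Eno1 was not measured. For Pfkp against Pfkm the within-mouse difference ran from -5.99 to -5.54 in the controls and from -6.00 to -5.06 with deletion. Deletion mice 1, 2, 4, 6 and 7 lay above every control, and the groups differed by 0.33 (95% interval 0.07 to 0.59, exact two-sided permutation p = 0.0204, 0.0611 after Benjamini-Hochberg adjustment over the 3 pairs). For Slc2a1 against Slc2a4 the groups differed by 0.33 (interval 0.0008 to 0.67, exact permutation p = 0.051, adjusted 0.0765), with 3 deletion mice, 4, 6 and 7, above every control. For Pgam1 against Pgam2 they differed by 0.11 (interval -0.07 to 0.28, exact permutation p = 0.209, adjusted 0.209).

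None of the 3 pairs passed after adjustment in this test, and each passed when certain single mice were left out. With the replicate number as a block, in a limma fit rather than the permutation test, Pfkp against Pfkm also passed (0.33, limma adjusted p = 0.0104). Whether these numbers pair the mice was not settled. Pfkp against Pfkm passed without control 1 (0.32), control 7 (0.36), deletion mouse 5 (0.36) or deletion mouse 8 (0.40), with adjusted exact permutation p-values of 0.0329, 0.0443, 0.0247 and 0.00839. Slc2a1 against Slc2a4 passed without control 1 (0.39, adjusted p = 0.0329, exact permutation) or deletion mouse 5 (0.41, adjusted p = 0.0247). Pgam1 against Pgam2 passed without control 1 (0.16, adjusted p = 0.0329, exact permutation), and read from the other Pgam1 probe set the difference was 0.02.

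**Figure D2:**
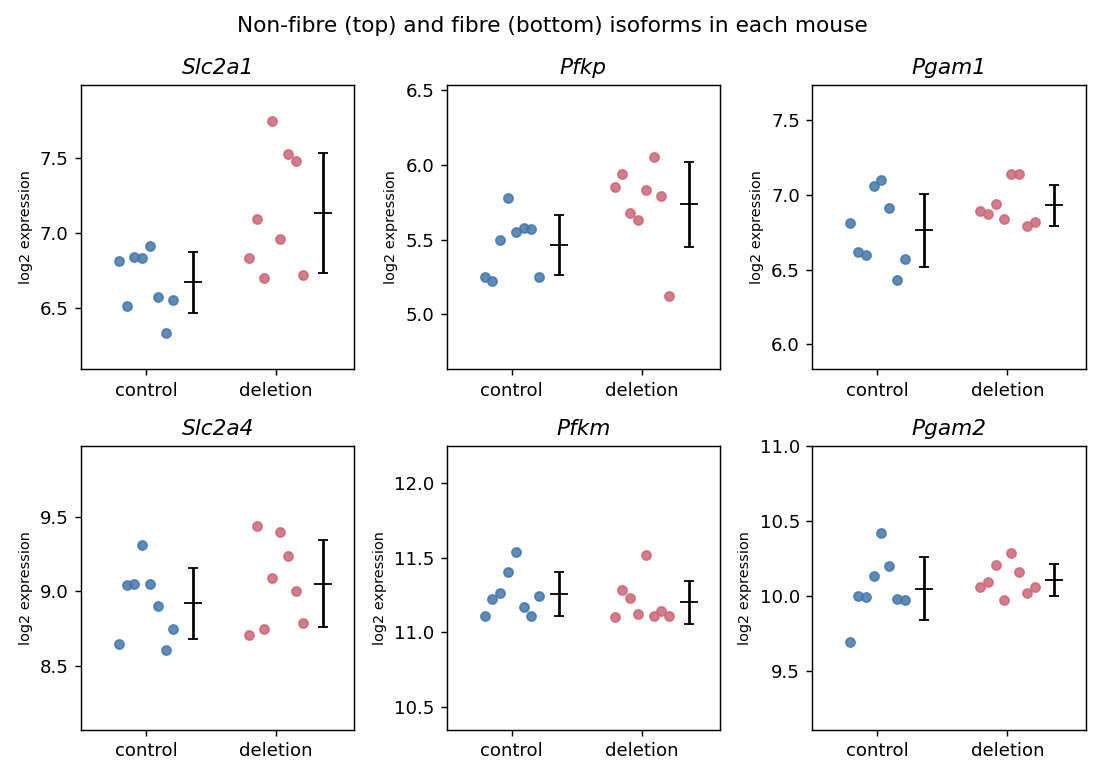
Log2 expression (vertical axis, the same span in each panel) of the isoforms of other cells in the top row and of fibres in the bottom row, 1 point per mouse, with the group mean and SD beside the points (n = 8 each). In the deletion group 5 mice lie above every control for Slc2a1 and for Pfkp, and 1 mouse lies below every control for Pfkp.

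Because vessel, nerve and immune cells use these other isoforms, each was set beside markers of those cells across the mice, as deviations from the group means, in 9 relations. Pfkp followed the endothelial list: r was 0.68 (permutation p = 0.00748, adjusted over the 9 0.0337) and rho 0.62 (p = 0.0132, adjusted 0.0595, permutation). The r was 0.65 within the controls, 0.71 within the deletion mice and 0.73 without deletion mice 2 and 5, the farthest from the median. By rank the relation was weaker within the deletion mice (rho 0.48) than within the controls (rho 0.67). Deletion mouse 8, lowest in Pfkp and part of the r over all mice, had the lowest endothelial mean of the deletion group, 7.12. Deletion mouse 5 had the highest, 7.73, but its Pfkp value of 5.83 lay below deletion mice 1, 2 and 6. The part of endothelial cells in the Pfkp difference was not tested. Slc2a1 gave r 0.39 with the endothelial list (permutation adjusted p = 0.542), and 0.66 without deletion mice 2 and 5. Of the other relations with the endothelial and macrophage lists, none passed by r or by rho.

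The Schwann cell and nerve list split the mice into separate sets, 11 mice between 5.54 and 6.02 and 5 mice between 6.68 and 6.77. An r over all mice therefore spans a gap. The relation of Slc2a1 with this list over all 16 mice passed by r (0.74, permutation adjusted p = 0.0337) and by rho (0.82, adjusted p = 0.013). It was the only one of the 9 to pass by both, but it spans these separate sets. Within the controls r was 0.46 and rho 0.76, and within the deletion mice r was 0.85 and rho 0.83. The 5 mice were control 1 and deletion mice 2, 4, 6 and 7. Slc2a1 read 6.81 in this control, and 7.09, 7.75, 7.53 and 7.48 in these deletion mice. The same deletion mice were the 4 highest of all 16 for Slc2a1. Their neutrophil and red cell means were 5.64, 6.70, 6.73 and 5.05, and the part of those cells in the difference was not tested. Among the other 11 mice (7 controls and 4 deletion mice) the group difference in Slc2a1 was 0.16, against 0.47 over all 16. Leaving out the 4 highest mice, all of the deletion group, lowers the difference whatever their markers read. The part of nerve in the difference was therefore not tested by this. Within those 11 the r of Slc2a1 with the list was 0.41 and the rho 0.44 (permutation p = 0.168 and 0.174, adjusted over 3 genes 0.321 and 0.262). It was 0.75 without control 7 and deletion mouse 3. Pmp22 and Mal, proteins of myelin, differed by 1.03 and 1.12 between groups without passing, and Mbp, another, by 0.35. Mal had the largest difference of the list, whose 9 tested genes ran from -0.06 to 1.12 with a median of 0.34. GLUT1 is known to be abundant in the sheath around nerves. The perineurial and nerve sheath list had 0 of 7 genes past the threshold, with means of 5.15 to 6.04 in the controls and 5.38 to 5.94 with deletion. With the Schwann cell and nerve mean as a covariate in limma the Slc2a1 difference was 0.25 (SE 0.12, adjusted p = 0.445), and that of Slc2a1 against Slc2a4 was 0.17 (adjusted p = 0.329).

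**Figure D3:**
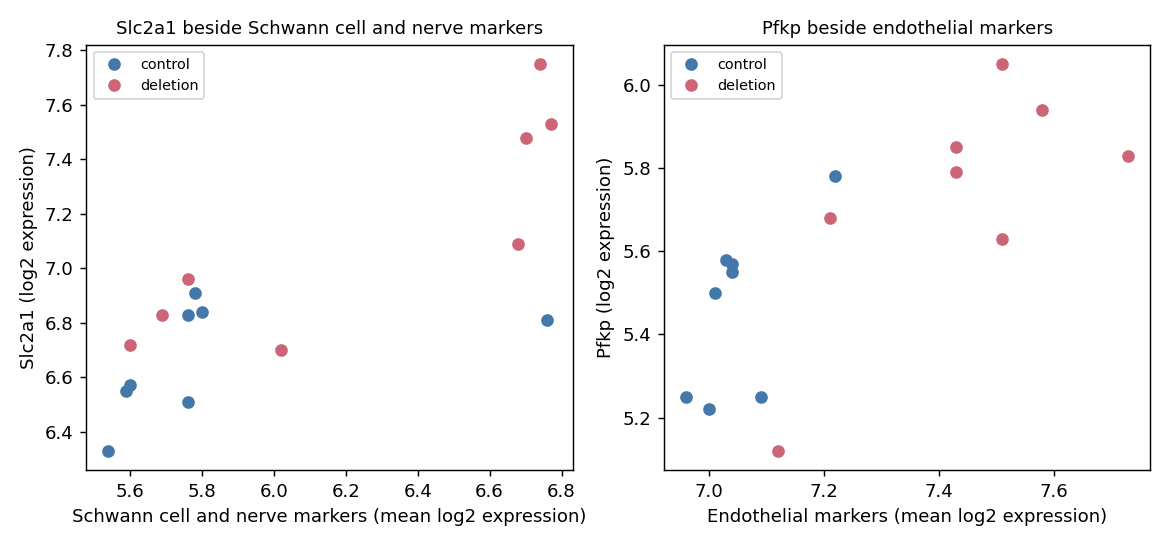
Log2 expression of Slc2a1 beside the mean of the Schwann cell and nerve markers (left) and of Pfkp beside the mean of the endothelial markers (right), 1 point per mouse, coloured by group. On the left 5 mice lie apart at 6.68 or above on the horizontal axis. On the right the deletion mouse lowest in Pfkp has an endothelial mean of 7.12, and the mouse with the highest mean, 7.73, reads 5.83 for Pfkp.

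With the endothelial mean as a covariate in limma, Pfkp against Pfkm differed by 0.08 (adjusted p = 0.877), and the differences of 22 of the 35 genes turned sign, to -0.16 (SE 0.16) for Pfkp and 0.02 (SE 0.10) for Ppp1r3a. Slc2a1 kept a positive value of 0.14 (SE 0.24) and Fbp2 its negative sign. Endothelial means and groups overlap little, so that this fit has wide errors and group and marker level can hardly be told apart by it.

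All 35 genes were also set beside the mean of the slow fibre markers, after the values had been seen. These markers are RNA values, and the fibre make-up itself was not measured here. Control 5 stood apart with a slow fibre mean of 6.41, the other controls lying at 8.22 or higher and the deletion mice at 7.79 or higher. By r 9 of the 35 relations passed after adjustment over the 35, and by rho 0 did. Gpd2 (r -0.82, rho -0.56), Gpd1 (-0.82, -0.36), Pfkfb3 (-0.75, -0.64), Phka1 (-0.74, -0.49), Pygm (-0.66, -0.32) and Phkb (-0.54, -0.61) were lower where slow fibre markers were higher. Ldhb (0.80, 0.62), Hk2 (0.64, 0.76) and Ugp2 (0.61, 0.61) were higher there. The permutation adjusted p of r was between 0.0264 and 0.0409 for these 9, and that of rho between 0.0588 and 0.354.

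Control 5 stood out for the shuttle enzymes. It read 10.46 for Gpd1, where the other controls lay between 9.46 and 9.86, and 9.13 for Gpd2, against 8.16 to 8.47. Without control 5 the r of the negative relations was -0.57 for Gpd1, -0.59 for Gpd2, -0.60 for Pfkfb3, -0.47 for Phka1, -0.46 for Pygm and -0.57 for Phkb. Within the 8 deletion mice it was -0.86, -0.72, -0.76, -0.64, -0.79 and -0.60 for the same genes. Without control 5 and deletion mouse 7, the farthest from the median, it was -0.44, -0.51, -0.57, -0.48, -0.38 and -0.62. For the positive relations r without these 2 mice was 0.60 for Ldhb, 0.90 for Hk2 and 0.88 for Ugp2. Slc16a1 and Gys1, which did not pass over all 16 mice, gave 0.89 and 0.86 without these 2 mice.

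**Figure D4:**
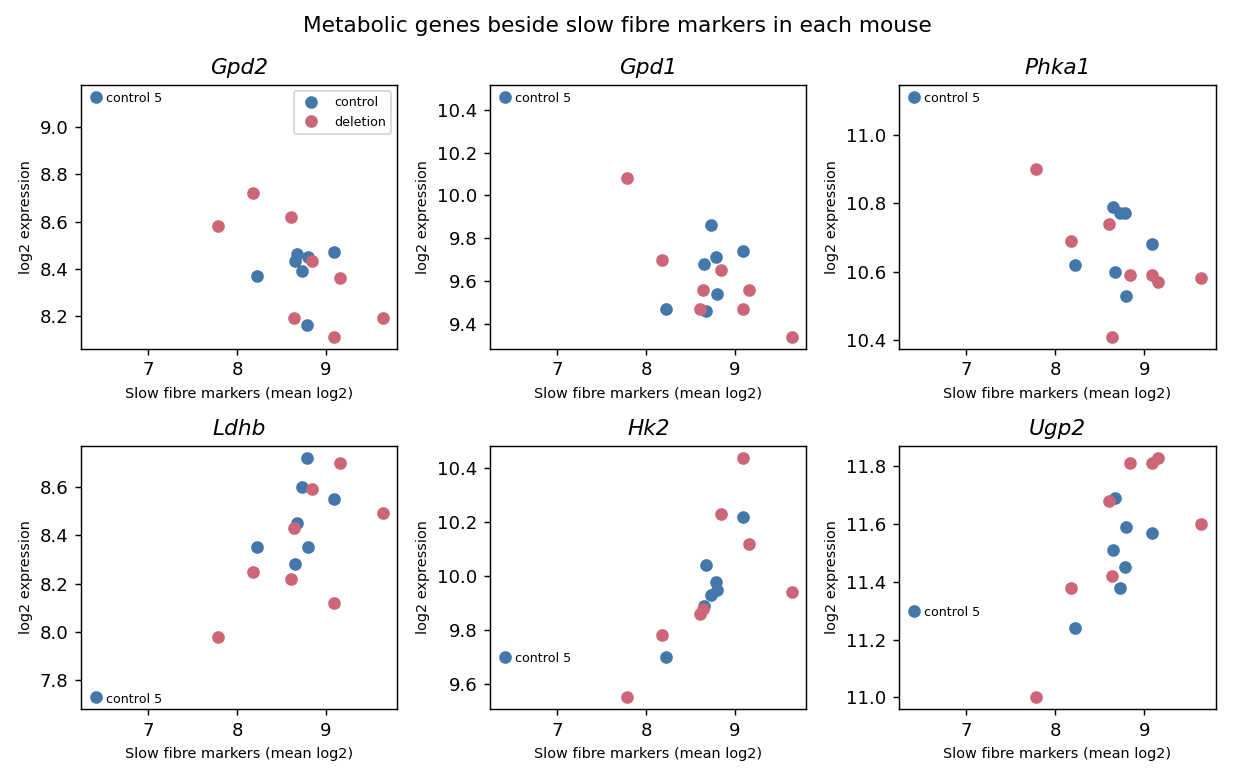
Log2 expression (vertical axis, its span set by each gene) of 6 genes beside the mean of the slow fibre markers (horizontal axis), 1 point per mouse, coloured by group. Control 5, at 6.41 on the horizontal axis, is the highest mouse for Gpd2, Gpd1 and Phka1 and the lowest for Ldhb.

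Around these genes, other lists of the pathway, with 13, 23, 17, 18 and 13 genes tested, gave a single call. Over all genes 1.83% passed, so 1 call is not read as a result about the pathway. Pgm2l1, a relative of phosphoglucomutase that makes glucose 1,6-bisphosphate, read 6.95 to 7.40 in the controls and 6.62 to 6.98 with deletion. It fell by 0.31 (SE 0.07, adjusted p = 0.0352), with 7 of 8 deletion mice below every control. It was the only 1 of 17 tested genes of the further glycogen list to pass. Pgm5 (0.37, SE 0.10, adjusted p = 0.0686) and Pgm2 (0.35, SE 0.12, adjusted p = 0.136) had positive differences there, and Ppp1cb, a catalytic subunit of protein phosphatase 1, a negative one (-0.15, SE 0.06).

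In the list of glucose transport control 12 of 13 genes had a negative difference, with a median of -0.13, and 0 passed. Tbc1d1, which restrains GLUT4 vesicles until it is phosphorylated, differed by -0.42 (SE 0.15, adjusted p = 0.176), and Mlxip, a glucose-sensing transcription factor, by -0.14 (SE 0.06). Arrdc4, an arrestin-like brake on glucose uptake, differed by 0.08 (SE 0.08). Prkaa2, a catalytic subunit of the kinase AMPK that phosphorylates Tbc1d1, fell by 0.93 (SE 0.08, limma adjusted p = 1.4e-06). It belongs to no list here and was named after its value was seen. Other AMPK subunits are not given here, and a link between Prkaa2 and the genes of this list was not tested.

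Of 23 further genes of glycolysis and pyruvate use 0 passed, 11 differing upward and 12 downward. Emb, the partner of lactate carriers, differed by 0.47 (SE 0.17, adjusted p = 0.168), Pdk3, a kinase that shuts off pyruvate dehydrogenase, by 0.23, Pklr, the liver pyruvate kinase, by -0.25, and Tigar, a fructose bisphosphatase, by -0.17. In the list of pentose phosphate, hexosamine and gluconeogenesis genes 0 of 18 passed. Pgd and Taldo1, enzymes of the pentose phosphate route, differed by 0.31 (SE 0.11) and 0.27 (SE 0.12), Rpia of the same route by -0.20, and Gnpnat1 of the hexosamine route by -0.16.

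Hypoxia-responsive genes outside glycolysis had 10 of 13 positive differences, a median of 0.14 and 0 past the threshold. Of the 13, 5 had an unadjusted limma p under 0.05 (38.46%, against 17.3% of all genes tested), all higher with deletion. The share was 29.41% in the further glycogen list and 23.08% in the list of glucose transport control. It was 22.22% in the pentose phosphate, hexosamine and gluconeogenesis list and 17.39% in that of glycolysis and pyruvate use. Ddit4, a stress-induced brake on mTORC1, differed by 0.79 (SE 0.23, adjusted p = 0.0876), with 6 of 8 deletion mice above every control. Adm, the vessel-relaxing peptide adrenomedullin, differed by 0.56 (SE 0.20, adjusted p = 0.161). Egln1 and Mxi1 differed by -0.07 and -0.08.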

How the data were processed

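Total RNA from gastrocnemius was measured on 1 array per mouse, 8 controls and 8 deletion mice, numbered as biological replicates in the labels. The authors deposited log2 expression values per probe set, made with RMA in the package oligo according to the submitters' processing notes (no versions stated). RMA equalises the arrays' distributions, which hides any shift shared by the whole transcriptome, and it compresses differences of dim probe sets. The array's genome build is not given in the sources used here. Precision is limited by the number of arrays.

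A gene was read from its brightest probe set with 1 symbol, and tested if 8 or more of the 16 mice had it above their array's median. Groups were compared with limma 3.58.1 in R 4.3.3, two-sided, adjusted by Benjamini-Hochberg over 13601 genes at 0.05, with no covariate. For single values an exact permutation test enumerated the 12870 ways to divide the mice (smallest p 0.000155). Relations used deviations from group means, permuted within groups 1e+05 times, and were adjusted over their family. Of the pairs and relations laid out, those with Eno1 could not be made. The fit was tested on simulated data.

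The 40 genes, the pathway lists and the marker lists were chosen with earlier results of these data known. Values in every mouse are summarised for the isoform pairs and for the 4 other members with the smallest p, and up to 2 genes per direction are named from each other list. Added after values were seen were leaving out the mice with high Alb, the other Pgam1 probe set, the slow fibre relations (also without control 5), the split of mice by Schwann markers and the promoter motifs. Alternatives covered filters, scaling between arrays, probe set summary, variance models, array weights, a replicate block, marker lists as covariates, a looser threshold and leaving out each mouse. Gene chromosomes and promoters are RefSeq's of GRCm38.p6.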

Additional observations from a re-analysis of the deposited data

Results flagged for a closer look

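Of 76 groups of 8 values (the genes tested and the isoform pairs, in each group), 10 held a mouse whose gap to its neighbour was wide for its group's range, and these came from 4 mice. Chance gives about 1 in 20 such groups. Control 5 gave 6 of them. It was the highest control for Gpd2 (9.13, the others 8.16 to 8.47), Gpd1 (10.46, the others 9.46 to 9.86), Phkg1 (10.03, the others 9.35 to 9.52) and Phka1 (11.11, the others 10.53 to 10.79). It was the lowest control for Ldhb (7.73, the others 8.28 to 8.72) and Gbe1 (9.22, the others 9.81 to 10). Its slow fibre mean was 6.41, the lowest of all mice, and the part of fibre make-up in these values was not tested. Deletion mouse 8 was the lowest of its group for Hk1 (5.13, the others 5.67 to 6.02) and Pfkp (5.12, the others 5.63 to 6.05). Deletion mouse 5 was the highest of its group for Pfkm (11.52, the others 11.10 to 11.28). Control 1 was the lowest control for Gys1 (9.65, the others 10.1 to 10.49).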

How the results depend on the processing

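The count of genes past the threshold among the 35 was 0 in every setting run but 1, the omission of deletion mouse 8, which gave 3, so that leaving out each mouse gave 0 to 3. It was 0 also at an adjusted p under 0.10 and with all probe sets tested separately. The 249 calls over all genes became 107 to 680 with single mice left out, 137 without the filter, 145 with the slow fibre covariate, 36 with the Schwann covariate, 5 with the endothelial covariate and 7 without the mice with high Alb. This last fit had smaller and unequal groups. Fbp2, Gbe1, Gpd1, Pfkm and Slc2a1 kept their sign in the settings that gave 1 value per gene, as did Gapdh, though 1 of its 3 probe sets tested separately gave -0.12. With arrays centred on their median the signs turned for Hk2 -0.00106, Pfkfb4 -0.0144, Pgk1 -0.0422, Eno3 -0.00492, Ldha -0.039, Pygm -0.0442 and Gyg -0.0396. Quantile normalization turned Ldha -0.0265, and array weights Ppp1r3c 0.0601. The slow fibre covariate turned Hk2 -0.0139, Gyg -0.00242, Phkg1 0.0011, Ppp1r3c 0.0114 and Gpd2 0.0125. The Schwann covariate turned Slc2a3 -0.0352, Phkg1 0.00776 and Gpd2 0.0365. The endothelial covariate moved the median difference to -0.0891 and turned Hk1 -0.28, Hk2 -0.36, Pfkl -0.20, Pfkp -0.16, Pfkfb2 -0.0891, Pfkfb4 -0.0905, Tpi1 -0.0568, Pgk1 -0.0125, Pgam1 -0.0126, Pgam2 -0.0382, Pkm -0.12, Slc2a3 -0.18, Slc2a4 -0.38, Slc16a1 -0.43, Slc16a3 -0.22, Gys1 -0.26, Ugp2 -0.22, Gyg -0.0628, Phka1 0.0919, Phkb 0.087, Ppp1r3a 0.0243 and Gpd2 0.0824. Without the mice with high Alb the turned values were Pfkfb3 -0.0481, Pfkfb4 -0.0159, Pgk1 -0.0541, Slc2a3 -0.0948, Slc2a4 -0.00732, Pygm -0.011 and Gyg -3.99e-05.

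With single mice left out the ranges of those that turned were Hk2 -0.0142 to 0.11, Pfkfb3 -0.10 to 0.24, Pgk1 -0.027 to 0.0467, Ldha -0.0138 to 0.0458, Ldhb -0.13 to 0.0195, Pygm -0.0143 to 0.0339, Gyg -0.0125 to 0.0345, Phkg1 -0.10 to 0.00835, Ppp1r3c -0.12 to 0.11, Gpd2 -0.13 to 0.0121. The ranges for Pfkp (0.23 to 0.36), Slc2a1 (0.38 to 0.53) and Ppp1r3a (-0.23 to -0.16) kept 1 sign, as did those of the pairs, 0.27 to 0.40 for Pfkp against Pfkm, 0.0676 to 0.16 for Pgam1 against Pgam2 and 0.25 to 0.41 for Slc2a1 against Slc2a4. As limma fits of the pair difference, Pfkp against Pfkm (0.29, adjusted p = 0.0444) and Slc2a1 against Slc2a4 (0.35, adjusted p = 0.0444) passed with the slow fibre covariate. The pairs without a covariate were tested by permutation, so the covariate and the change of test cannot be told apart here. With the endothelial covariate Pfkp against Pfkm was 0.0789, Pgam1 against Pgam2 0.0257 (adjusted p = 0.877 for both) and Slc2a1 against Slc2a4 0.52 (0.139). With the Schwann covariate they were 0.25 (0.169), 0.0248 (0.787) and 0.17 (0.329). Without the 2 mice farthest from the marker median, r of Slc2a1 was 0.66 with the endothelial and 0.45 with the macrophage list, and r of Pgam1 with the Schwann list was -0.0936. The causes were not tested.

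Whether equal replicate numbers pair the mice was not settled. Of the same-numbered pairs, 4 of 8 had deviations correlated over 0.1 (range -0.08 to 0.25), and 3 of 8 controls correlated best with their own number. With the replicate block 213 genes and 0 of the 35 passed, and Pfkp against Pfkm passed (0.33, adjusted p = 0.0104, limma). For the pair the block and the change from the permutation test cannot be told apart. Dim probe sets and 8 mice per group limit what can be seen, the SE of the 35 running from 0.05 to 0.27.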
